A study of Mus musculus with 6 samples.

Results

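Toll-like receptors are innate sensors of microbial molecules and of nucleic acids, and myeloid cells carry many of them. Here 10 genes of this system were followed in MLL-AF9 leukemia cells, namely the surface receptors Tlr1, Tlr2, Tlr4 and Tlr6, the endosomal receptors Tlr7, Tlr9 and Tlr13, the co-receptors Cd14 and Ly96, and the adaptor Myd88. They were chosen by name for their roles, from 26082 gene names in the table, with earlier results of these data known. In the table, 8 of the genes had a line of their own, while Tlr1 and Tlr6 shared 1 line that joins both, so the 10 genes gave 9 entries. All 9 entries reached at least 1 FPKM (fragments per kilobase of transcript and per 1e6 mapped fragments) in every sample and were tested among 11130 genes.

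The cells came from C57BL/6J mice with leukemia driven by the fusion oncogene MLL-AF9, which had been introduced into c-Kit+ bone marrow progenitors with a virus and passed through several rounds of transplantation. The same transduced gene is present in both groups. In the vehicle group 3 leukemic mice received the carrier, and in the DS-5272 group 3 leukemic mice received 80 mg/kg of DS-5272, an inhibitor of the binding of p53 to MDM2, by mouth. Leukemia cells were sorted from the bone marrow 24 h later for RNA-Seq. The ages of the mice were not given in the sources used here. The samples are bulk RNA, so a change in the kinds of cells in the sort and a change in RNA per cell cannot be told apart. Nothing in the labels says whether the 3 samples of a group came from independent leukemias, so p-values measure the spread between these samples.

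Toll-like receptors recognize their ligands with a leucine-rich repeat ectodomain and signal through a cytoplasmic TIR domain. The surface receptors sense lipids and proteins of microbes. Tlr2 pairs with Tlr1 or Tlr6 to sense lipopeptides, and Tlr4 senses lipopolysaccharide together with its binding partner Ly96, also called MD-2, after Cd14 has handed over the lipid. Tlr7, Tlr9 and Tlr13 sense single-stranded RNA, unmethylated CpG DNA and bacterial ribosomal RNA in endosomes, where they arrive with the chaperone Unc93b1 and are cut by proteases. MyD88 links these receptors to kinases of the IRAK family, and from there to NF-kB, AP-1 and interferon regulatory factors.

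Promoter sequences of the receptors that the results turn on are given first. From the RefSeq promoter table for GRCm38.p6, 8 start sites of 6 of the 10 genes were used. The 250 bases before each start were searched on both strands for 6 motifs. No window of Tlr4, Tlr7, Cd14 or Ly96 was searched, so the motif counts do not cover these genes. Lower case marks the promoter and capitals mark a motif match. Longer stretches of annotated exons are not shown, so the Tlr13 and Myd88 stretches end before the first annotated exon in the window, and only 30 bases around the match are given for Tlr2, the last of which run into the annotated transcript. The Myd88 stretch lies before the start that RefSeq lists but inside the longer GENCODE gene, in an intron of a transcript that starts further upstream. Tlr2, Tlr9 and Tlr13 are receptors with rises and Myd88 is the adaptor they share.
Tlr2, minus strand, chr3:83841762-83841791: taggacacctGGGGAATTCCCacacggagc
Tlr13, plus strand, chrX:106143025-106143203: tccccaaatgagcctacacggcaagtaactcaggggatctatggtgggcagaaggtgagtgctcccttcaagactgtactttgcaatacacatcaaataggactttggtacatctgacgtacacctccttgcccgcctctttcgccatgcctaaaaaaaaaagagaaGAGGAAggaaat
Tlr9, plus strand, chr9:106222348-106222597: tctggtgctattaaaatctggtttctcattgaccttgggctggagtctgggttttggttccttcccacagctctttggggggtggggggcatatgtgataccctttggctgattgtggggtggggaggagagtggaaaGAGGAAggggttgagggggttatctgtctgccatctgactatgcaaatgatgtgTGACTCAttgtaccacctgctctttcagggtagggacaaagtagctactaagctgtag
Myd88, minus strand, chr9:119340042-119340268: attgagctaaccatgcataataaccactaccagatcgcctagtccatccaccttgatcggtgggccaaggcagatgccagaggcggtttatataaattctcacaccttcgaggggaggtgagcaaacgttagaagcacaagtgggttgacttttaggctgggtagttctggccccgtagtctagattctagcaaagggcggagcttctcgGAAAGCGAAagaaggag

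The Tlr2 stretch holds matches to the NF-kB consensus that overlap each other, 163 to 173 bases before the start that RefSeq lists and upstream of the GENCODE start of the gene. The core letters of PU.1 sites, GAGGAA, lie 78 to 83 bases before the listed start of Tlr13 and 107 to 112 bases before that of Tlr9. PU.1 is the myeloid transcription factor encoded by Spi1. The Tlr9 promoter also holds the AP-1 letters TGANTCA, and the Myd88 promoter holds the interferon response letters GAAANNGAA. Over the 8 windows, GAGGAA was found in 3, GAAANNGAA in 2, and the NF-kB consensus, TGANTCA and the C/EBP letters TTGCNNAA in 1 each. A p53 half-site consensus was found in 0 of the 8 windows. Among the 32851 promoters counted, 23.3% hold GAGGAA, 7.13% GAAANNGAA, 7.25% the NF-kB consensus, 6.75% TGANTCA, 9.56% TTGCNNAA and 7.13% the p53 half-site consensus. These matches describe letters in the sequence and not bound sites.

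The values are the FPKM that the authors computed with Cufflinks, which carry no read counts. From the steps of low values, the depth was estimated at 34900000 to 43200000 fragments in the vehicle samples and 23300000 to 32200000 in the DS-5272 samples. The comparison of treated with vehicle samples used limma on log2(FPKM + 1), with p-values adjusted over all 11130 tested genes and a threshold of 0.05, and fold changes on this scale understate the change of low genes. In all, 24.2% of the tested genes rose and 22.0% fell. Rises were 52.4% of all calls, but 41.3% after scaling to a common upper quartile, 43.5% after quantile normalization and 32.5% after scaling to a common total, and the latter shifted the median of all genes by −0.24 on the log2 scale. The 9 entries stayed higher in the DS-5272 samples under each scaling. Replicates with the same number deviated together from their group means, but replicates 2 and 3 also did so across numbers. Limma was also run with the number as a blocking factor, quoted where it changed the call of an entry or the number of calls in a list.

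Of the 9 entries, 8 rose after DS-5272 and 0 fell, beside the 24.2% of all tested genes that rose. All 9 had an unadjusted limma p under 0.05 in the direction of a rise, and 0 in the other direction. The 9 entries were all higher in the DS-5272 sample than in the vehicle sample of the same number. For both of these counts the share over all tested genes was not computed, so they cannot be read against it. In 8 of the entries the groups did not overlap, as in 32.1% of tested genes in this direction. The median log2 fold change of the entries was 1.69, against 0.04 over all tested genes. With the replicate block, 9 of 9 entries rose, beside 30.3% of tested genes. Without DS-5272 replicate 1, 7 entries rose, while rises over all tested genes went from 2697 to 2934. Without vehicle replicate 2, or vehicle replicate 3, 6 entries rose, beside 1623 and 1799 rises over all tested genes. A single gene with 3 samples against 3 cannot go below p = 0.1 in an exact permutation test, so single calls rest on the spread that limma shares across genes.

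**Figure D1:**
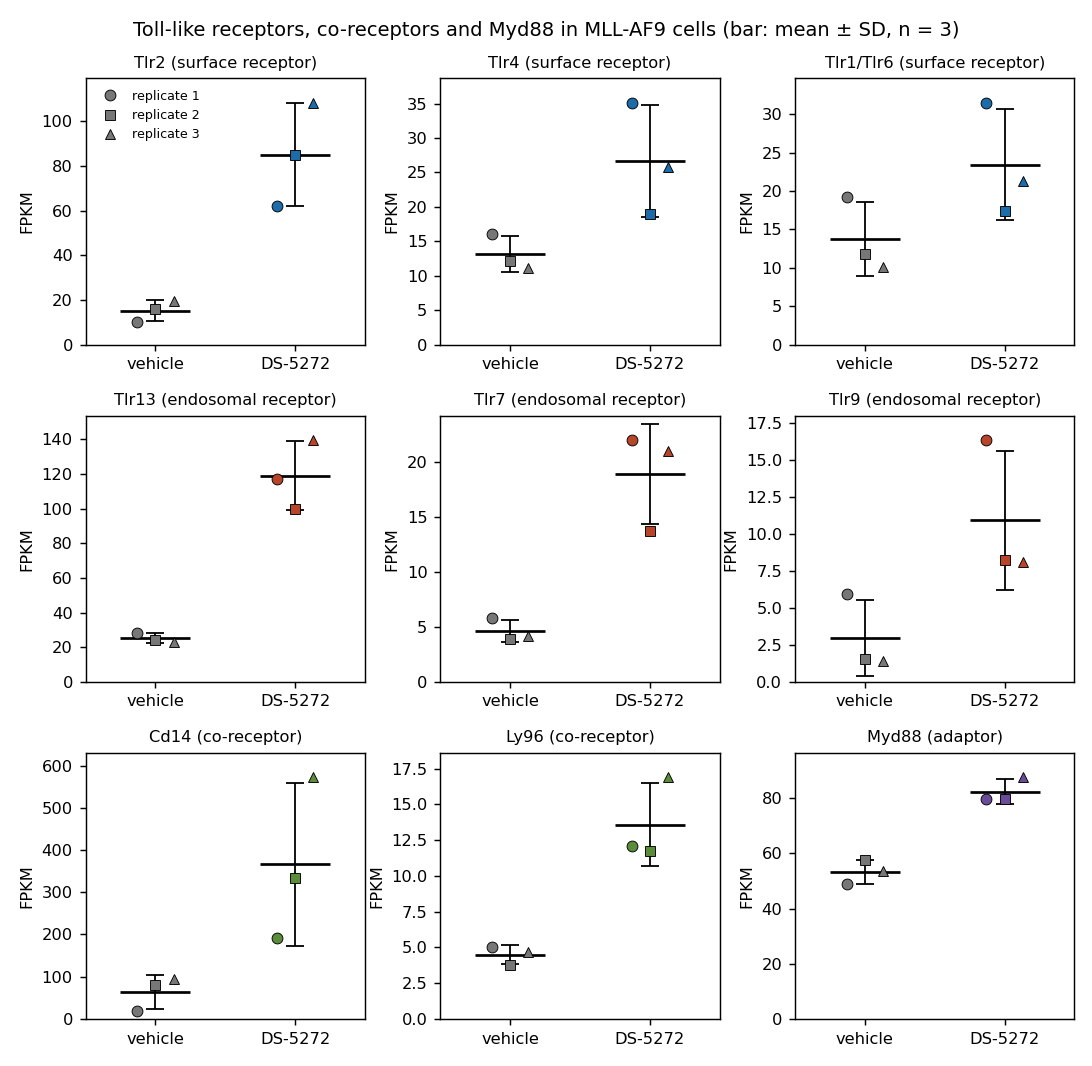
FPKM (vertical axes, linear and starting at 0) of each of the 9 entries in the 3 vehicle samples (gray) and the 3 DS-5272 samples (colored by role), with marker shapes for the replicate number and bars for the mean ± SD. The groups are separate in every panel except Tlr1/Tlr6, where vehicle replicate 1 (19.2) lies above DS-5272 replicate 2 (17.5).

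Among the surface receptors, Tlr2 (chr3:83836272-83841767 in GRCm38, minus strand) changed most. Values are given for replicates 1, 2 and 3 in this order throughout. Tlr2 measured 10.3, 15.8 and 19.6 FPKM in the vehicle samples and 61.9, 85.0 and 108 FPKM in the DS-5272 samples. Every treated sample lay above every vehicle sample, and replicate 1 was the lowest of its group on both sides. The means were 15.3 ± 4.66 and 85.1 ± 23.2 FPKM (SD, n = 3), a ratio of 5.57. The log2 fold change was 2.41 ± 0.28 (SE), with an adjusted p of 0.00214 by limma, larger than that of 98.65% of tested genes. The differences within same-numbered pairs were close to each other, at 2.47, 2.35 and 2.41 on the log2 scale.

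Tlr4 (chr4:66827584-66930284, plus strand), the lipopolysaccharide receptor, rose less. It measured 16.1, 12.2 and 11.2 FPKM in the vehicle samples and 35.1, 19.0 and 25.8 FPKM in the DS-5272 samples. The groups did not overlap, but DS-5272 replicate 2 stood only slightly above vehicle replicate 1. The means, 13.2 ± 2.61 and 26.7 ± 8.10 FPKM, differed 2.02-fold, and the log2 fold change was 0.94 ± 0.24 (limma, adjusted p = 0.0183). This call was lost without vehicle replicate 2 (adjusted p = 0.0646 by limma), without vehicle replicate 3 (0.0626) and after scaling to a common total (0.105).

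Tlr1 and Tlr6, the partners of Tlr2, lie next to each other on chromosome 5, at chr5:64924679-64933563 and chr5:64952031-64960097 on the minus strand, and their joined entry cannot be divided between them. It measured 19.2, 11.8 and 10.1 FPKM in the vehicle samples and 31.5, 17.5 and 21.3 FPKM in the DS-5272 samples. Replicate 1 was the highest of each group, and vehicle replicate 1 overlapped the DS-5272 group. The means were 13.7 ± 4.81 and 23.4 ± 7.25 FPKM. The log2 fold change of 0.74 ± 0.28 did not pass the threshold (limma, adjusted p = 0.0700). With the replicate block it did pass (limma, adjusted p = 0.00538), as it did without vehicle replicate 1 (adjusted p = 0.0343). The ratio of Tlr2 to its partners was 0.540, 1.34 and 1.94 in the vehicle samples and 1.96, 4.87 and 5.08 in the DS-5272 samples, so the ranges touched but did not overlap.

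All 3 endosomal receptors rose. Tlr13 (chrX:106143204-106160493, plus strand), a sensor of bacterial ribosomal RNA, had the highest level of the receptors in each of the 6 samples. It measured 28.2, 24.3 and 23.0 FPKM in the vehicle samples and 117, 100.1 and 139.8 FPKM in the DS-5272 samples. The samples of each group lay close together, and the groups were far apart. The means were 25.2 ± 2.73 and 118.9 ± 19.9 FPKM, a ratio of 4.72, with a log2 fold change of 2.19 ± 0.15 (limma, adjusted p = 0.000680), larger than that of 98.2% of tested genes.

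Tlr7 (chrX:167304929-167330558, minus strand), a sensor of single-stranded RNA, started from a lower level. The vehicle samples held 5.77, 3.92 and 4.14 FPKM and the DS-5272 samples 21.99, 13.7 and 20.9 FPKM. No vehicle sample came near the treated ones. The means of 4.61 ± 1.01 and 18.9 ± 4.54 FPKM gave a ratio of 4.09 and a log2 fold change of 1.81 ± 0.21 (limma, adjusted p = 0.00227).

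Tlr9 (chr9:106222598-106226883, plus strand), the CpG DNA sensor, was on average the lowest of the entries and the least even of the receptors between replicates. It measured 5.94, 1.57 and 1.43 FPKM in the vehicle samples and 16.4, 8.25 and 8.12 FPKM in the DS-5272 samples. Replicate 1 was the high sample of both groups, and vehicle replicate 1 still lay below all treated samples. The means were 2.98 ± 2.56 and 10.9 ± 4.72 FPKM, and the log2 fold change was 1.69 ± 0.46 (limma, adjusted p = 0.0227). The call was lost without DS-5272 replicate 1 (adjusted p = 0.0547 by limma), without vehicle replicate 2 (0.0784) or 3 (0.0705), without the filter on low genes (0.0504) and after scaling to a common total (0.0581), and the log2 fold change lay between 1.39 and 2.19 over all alternatives.

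**Figure D2:**
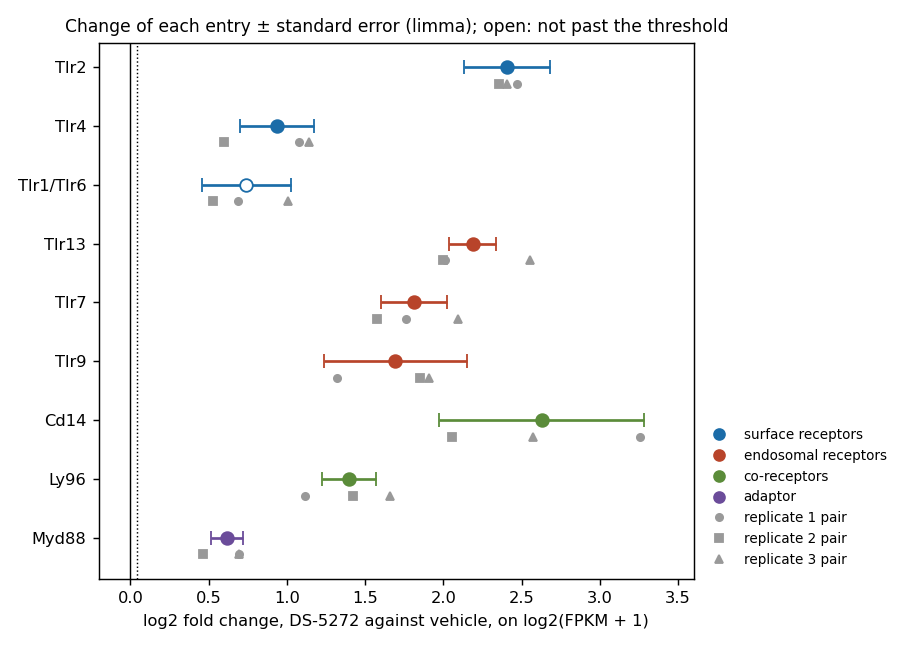
Log2 fold change of each entry, DS-5272 against vehicle, on log2(FPKM + 1) (horizontal axis), with the standard error from limma, colored by role. Gray symbols give the differences within the 3 same-numbered pairs, the solid line marks 0 and the dotted line the median of all tested genes (0.04). Tlr2, Tlr13 and Cd14 lie above 2, and the open symbol of Tlr1/Tlr6 did not pass the threshold.

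The co-receptors of Tlr4 both rose. Cd14 (chr18:36725067-36726798, minus strand), a surface protein that hands lipopolysaccharide to Tlr4, had the largest log2 fold change of the 9 entries. It measured 19.2, 79.3 and 95.6 FPKM in the vehicle samples and 192, 333.5 and 573 FPKM in the DS-5272 samples. Replicate 1 was again the low sample of both groups, and the lowest treated sample still held more than the highest vehicle sample. The means were 64.7 ± 40.3 and 366 ± 193 FPKM, a ratio of 5.66. The log2 fold change was 2.63 ± 0.66 (limma, adjusted p = 0.0178), larger than that of 99.04% of tested genes, and it passed with an adjusted p of 0.000949 under the replicate block. Without DS-5272 replicate 3 the adjusted p was 0.0531 by limma, with a log2 fold change of 2.24.

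Ly96 (chr1:16688051-16709611, plus strand), which encodes the lipopolysaccharide-binding partner of Tlr4, was a low entry with small spread. Its name stands on 2 lines, which were summed, and the smaller one held 0.0825 to 0.465 FPKM. The sums were 5.05, 3.75 and 4.68 FPKM in the vehicle samples and 12.1, 11.7 and 16.9 FPKM in the DS-5272 samples. The groups were clearly apart. The means of 4.49 ± 0.67 and 13.6 ± 2.91 FPKM gave a log2 fold change of 1.40 ± 0.17 (limma, adjusted p = 0.00250). Its transcript is short, and its values rest on an estimated 87 to 260 fragments per sample, the fewest of the 8 entries with a single gene.

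Myd88 (chr9:119335934-119341411, minus strand), the adaptor shared by all of these receptors, had the smallest rise. It measured 48.8, 57.6 and 53.8 FPKM in the vehicle samples and 79.7, 79.9 and 87.8 FPKM in the DS-5272 samples. The replicates were close to each other and the groups did not overlap. The means were 53.4 ± 4.39 and 82.5 ± 4.60 FPKM, a ratio of 1.54, with a log2 fold change of 0.62 ± 0.10 (limma, adjusted p = 0.00539). An exon of Myd88 overlaps Acaa1a on the opposite strand. The library kit keeps strand but the counting is not stated to use it, so fragments of the 2 genes may not be separable there. Exons of the other 9 genes overlap no other gene in the annotation.

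In the vehicle samples the mean levels followed the order Cd14, Myd88, Tlr13, Tlr2, Tlr1/Tlr6, Tlr4, Tlr7, Ly96 and Tlr9, from 64.7 down to 2.98 FPKM. Cd14 and Myd88 overlapped in range, as did Tlr2, Tlr1/Tlr6 and Tlr4, and Tlr7, Ly96 and Tlr9. After DS-5272 the order was Cd14, Tlr13, Tlr2, Myd88, Tlr4, Tlr1/Tlr6, Tlr7, Ly96 and Tlr9, from 366 down to 10.9 FPKM. Tlr13 lay above Myd88 in all 3 of these samples, Tlr2 and Myd88 overlapped, and so did each pair of neighbors from Tlr4 down. Myd88 amounted to 0.571, 0.827 and 0.774 of the summed receptors in the vehicle samples and to 0.281, 0.328 and 0.271 in the DS-5272 samples, without overlap.

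Surface and endosomal receptors were next set against each other in each mouse, with 3 entries on each side. The surface sum was 45.6, 39.8 and 40.9 FPKM in the vehicle samples and 128.5, 121 and 155 FPKM in the DS-5272 samples. The endosomal sum was 40.0, 29.8 and 28.6 FPKM in the vehicle samples and 155, 122 and 169 FPKM in the DS-5272 samples. Surface transcripts were the larger part in all 3 vehicle samples, and endosomal transcripts in all 3 DS-5272 samples. The endosomal share of the receptor sum was 46.7%, 42.8% and 41.1% in the vehicle samples and 54.7%, 50.1% and 52.1% in the DS-5272 samples, with means of 43.5 ± 2.85% and 52.3 ± 2.32%. The shares did not overlap, and DS-5272 replicate 2 was close to an even split.

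On the log2 scale, the mean of the surface entries minus that of the endosomal entries was 0.50, 1.05 and 1.07 in the vehicle samples and 0.22, 0.40 and 0.41 in the DS-5272 samples. The difference between the groups was −0.53, and it lay between −0.72 and −0.44 over all alternatives. These balances were not tested, since each is a single value in 3 mice against 3. Vehicle replicate 1, with the highest Tlr9, was the vehicle sample nearest to the DS-5272 group. The shift did not follow the location of the receptors entry by entry. Tlr2 rose as the endosomal receptors did, while Tlr4 and Tlr1/Tlr6 had the smallest log2 fold changes of the receptors.

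The shares of single receptors show the same split. Tlr13 made up 33.0%, 34.9% and 33.1% of the receptor sum in the vehicle samples and 41.2%, 41.1% and 43.1% in the DS-5272 samples. Tlr4 made up 18.8%, 17.5% and 16.1% and then 12.4%, 7.81% and 7.97%. Tlr13 took a larger share and Tlr4 a smaller one in every treated sample than in every vehicle sample, and Tlr1/Tlr6 behaved as Tlr4 did, with shares of 22.4%, 16.9% and 14.6% and then 11.1%, 7.17% and 6.58%. The shares of Tlr2, Tlr7 and Tlr9 overlapped between the groups. For Tlr2, replicate 1 was low on both sides, at 12.1% and 21.8%.

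**Figure D3:**
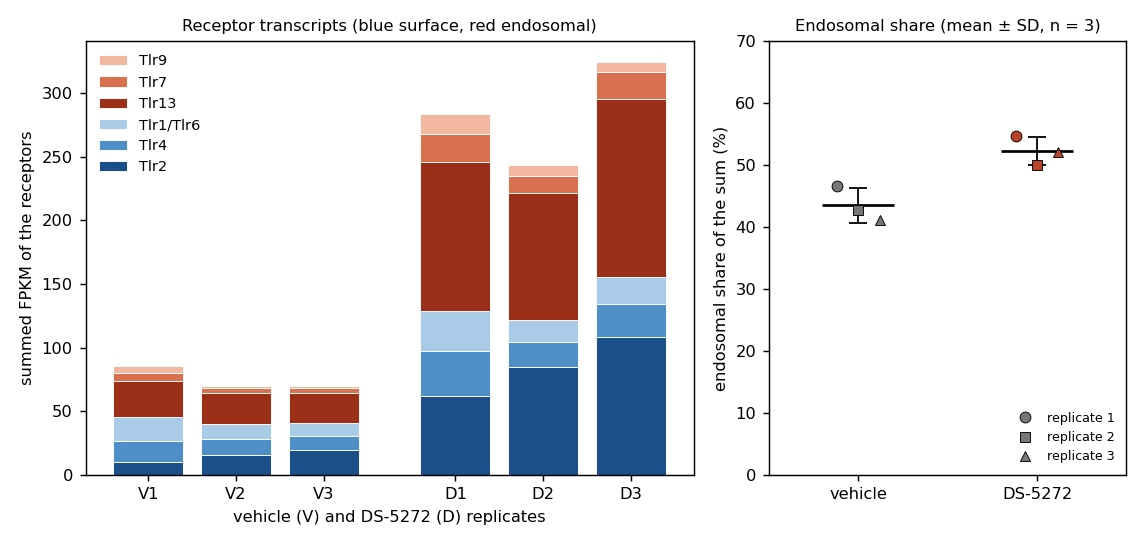
Left, FPKM of the 6 receptor entries stacked for each of the 6 samples (vertical axis, FPKM, starting at 0), with surface receptors in blue and endosomal receptors in red. Right, endosomal share of the sum in percent, with mean ± SD. The sums were 69.5 to 85.6 FPKM in the vehicle samples and 243 to 324 FPKM in the DS-5272 samples, and the endosomal share was above 50% only in the 3 DS-5272 samples.

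The transcripts of Cd14 and Ly96 did not keep fixed ratios to that of Tlr4 between samples. Cd14 measured 1.19, 6.50 and 8.55 times the level of Tlr4 in the vehicle samples and 5.47, 17.5 and 22.2 times in the DS-5272 samples. Ly96 measured 0.313, 0.307 and 0.419 of the level of Tlr4 and then 0.344, 0.616 and 0.655. Both ratios overlapped between the groups, because replicate 1 of the DS-5272 group had a low ratio in each case.

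Replicate 1 stood apart from the other replicates in a way that split the members. In both groups Cd14, Tlr2 and Myd88 were lower in replicate 1 than the mean of replicates 2 and 3, Cd14 by −2.13 and −1.18 on the log2 scale in the vehicle and the DS-5272 group. Tlr4, Tlr1/Tlr6, Tlr7 and Tlr9 were higher in replicate 1 of both groups, Tlr9 by 1.47 and 0.92. Tlr13 and Ly96 were slightly higher in one group and lower in the other. The labels name no batch, litter or day for these numbers. When DS-5272 replicate 1 was left out, the fitted changes on the log2 scale were 2.62 for Tlr2, 2.19 for Tlr13, 1.69 for Tlr7, 1.39 for Tlr9, 0.72 for Tlr4, 0.51 for Tlr1/Tlr6, 3.02 for Cd14, 1.47 for Ly96 and 0.64 for Myd88.

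Profiles over the 6 samples were compared by the root mean square difference of centered log2(FPKM + 1) values. The nearest member of Tlr4 was Tlr1/Tlr6, at 0.155, and that of Tlr13 was Tlr7, at 0.239. Genes near to Cd14 were Lcn2 at 0.192 and Plek at 0.242. Lcn2, which encodes the siderophore-binding protein lipocalin 2, measured 261, 752 and 841 FPKM in the vehicle samples and 1747, 3076 and 5728 FPKM in the DS-5272 samples. Plek, which encodes the protein kinase C substrate pleckstrin, had a log2 fold change of 2.75. These genes were chosen for their likeness to Cd14, so their own low replicate 1 and their rise follow from the choice.

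Other genes of the pathway were examined as 8 lists with 71 genes, of which 59 were tested. Of these, 34 rose and 2 fell, so 57.6% rose beside 24.2% of all tested genes. Their median was 0.62 on the log2 scale. With the replicate block 40 rose and 1 fell. Of the genes not tested, 3 lie in joined entries and 9 had a mean under 1 FPKM. Without vehicle replicate 2, 21 of the 59 rose, and rises over all tested genes went from 2697 to 1623. The rises were spread unevenly over the lists.

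**Figure D4:**
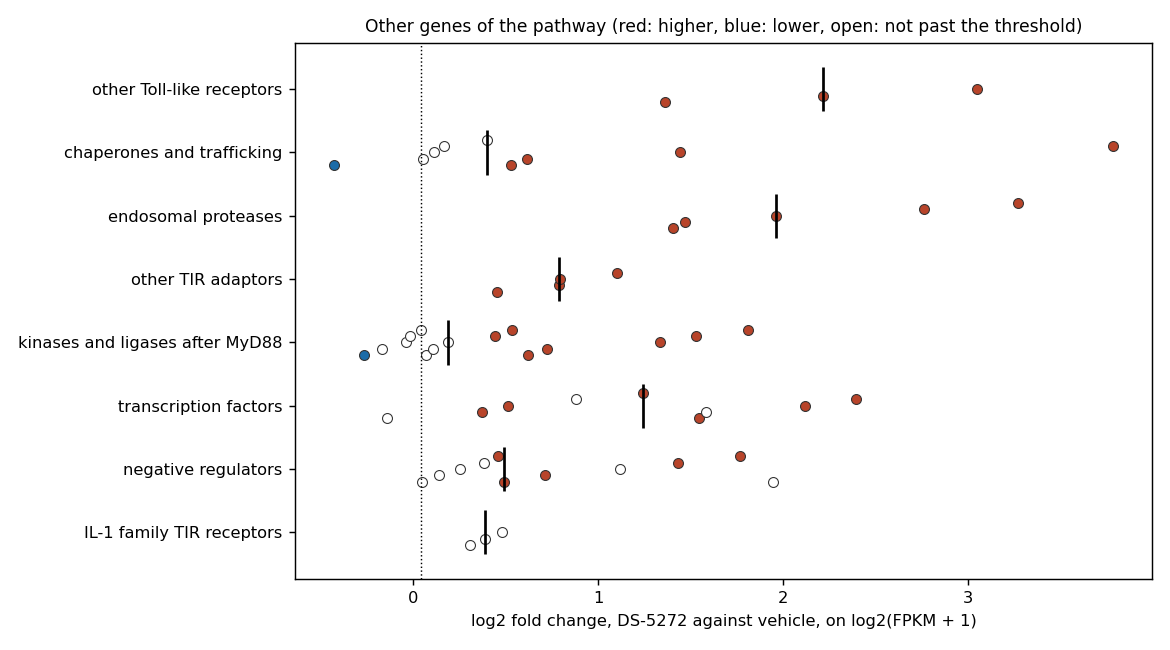
Log2 fold change, DS-5272 against vehicle, on log2(FPKM + 1) (horizontal axis) of the 59 tested genes of the 8 lists, 1 point per gene. Red points rose, blue points fell and open points did not pass the threshold by limma, vertical bars give the list medians and the dotted line the median of all tested genes. Other Toll-like receptors and endosomal proteases have all their points in red, while the kinases and ligases cluster near 0.

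Among the other Toll-like receptors, all 3 tested entries rose. Tlr8, an endosomal receptor that lies beside Tlr7 on the X chromosome (chrX:167242696-167264329), measured 2.55, 1.46 and 1.36 FPKM in the vehicle samples and 23.3, 16.3 and 26.9 FPKM in the DS-5272 samples. Its log2 fold change of 3.05 ± 0.23 (limma, adjusted p = 0.000703) was larger than that of any of the 9 entries. Tlr5, the surface receptor for flagellin, was low, with 0.264, 0.190 and 0.228 FPKM and then 2.78, 5.46 and 6.55 FPKM, a log2 fold change of 2.21 ± 0.26. Tlr3, Tlr11 and Tlr12 stayed under 1 FPKM in every sample. Tlr5 was below 1 FPKM in all vehicle samples and passed the filter on low genes through the DS-5272 samples alone, so its rise was fixed by the filter. Cd180, a surface relative of the receptors, measured 10.2, 3.04 and 3.20 FPKM in the vehicle samples and 16.6, 15.9 and 9.90 FPKM in the DS-5272 samples, with overlap between the groups and a log2 fold change of 1.36 ± 0.42 (limma, adjusted p = 0.0353).

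The list of receptor chaperones, trafficking genes and co-receptors, which is not confined to endosomal receptors, rose in part. Of its 9 tested genes, 4 rose and 1 fell, with a median of 0.40, and 5 rose with the replicate block. Unc93b1, the chaperone that takes endosomal Toll-like receptors out of the endoplasmic reticulum, measured 152, 143 and 134 FPKM in the vehicle samples and 400.1, 336 and 438 FPKM in the DS-5272 samples, a log2 fold change of 1.44 ± 0.13 (limma, adjusted p = 0.00121). Its level relative to the endosomal receptor sum went from 3.80, 4.80 and 4.67 to 2.58, 2.76 and 2.60, without overlap. Slc15a3, an endolysosomal transporter of histidine and peptides, had the largest change, 3.79 ± 0.13, from 2.59 to 3.002 FPKM in the vehicle samples to 43.9 to 59.5 FPKM. Lrrc59, which takes part in the trafficking of nucleic acid sensors, fell by 0.43 on the log2 scale (limma, adjusted p = 0.0471), a call lost in 8 of 16 alternatives.

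All 5 tested endosomal proteases rose, with a median of 1.96. Ctss, cathepsin S, had a log2 fold change of 3.27 ± 0.20, from 32.4 to 52.1 FPKM in the vehicle samples to 353 to 460.3 FPKM. Lgmn, the asparagine endopeptidase, changed by 2.76 ± 0.59 (limma, adjusted p = 0.0109) and was highest in DS-5272 replicate 1, at 49.4 FPKM against 8.50 and 11.7 FPKM in replicates 2 and 3. That sample also held the most macrophage transcripts, as given with the marker genes.

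All 4 tested TIR adaptors other than Myd88 rose, with a median of 0.79. Pik3ap1, which links the receptors to phosphoinositide 3-kinase, changed by 1.10 ± 0.09 (limma, adjusted p = 0.000928). Ticam2, which brings the adaptor TRIF to Tlr4, changed by 0.80 ± 0.21 (adjusted p = 0.0225 by limma), a call lost in 5 of 15 alternatives. Without vehicle replicate 2, and also without vehicle replicate 3, only 2 of the 4 rose. Rises over all tested genes went from 2697 to 1623 and to 1799 in these fits. The list ranged from 0.45 for Tirap to 1.10 for Pik3ap1.

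Of 15 tested kinases and ubiquitin ligases that act after MyD88, 7 rose and 1 fell, and the median of 0.19 was the lowest of the lists. Irak2, a kinase of the MyD88 complex, changed by 1.81 ± 0.16 and Map3k8, a kinase that feeds the ERK pathway, by 1.53 ± 0.32 (limma, adjusted p = 0.00103 and 0.0105). Map3k7, which encodes the kinase TAK1, fell by 0.27 on the log2 scale (limma, adjusted p = 0.0439), a call lost in 7 of 16 alternatives. The replicate block was among these alternatives (adjusted p = 0.0604 by limma).

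Of 9 transcription factors 6 rose, and 7 with the replicate block, with a median of 1.24. The largest rises were those of Irf7, at 2.39 ± 0.32, and Irf5, at 2.12 ± 0.18 (limma, adjusted p = 0.00333 and 0.000993), which carry the signal of endosomal receptors to type I interferon and cytokine genes. Only 3 of the 9 rose without vehicle replicate 1 and likewise 3 without vehicle replicate 2. Rises over all tested genes went from 2697 to 1940 and to 1623 in these fits. Of 11 negative regulators 5 rose, and 8 with the replicate block, with a median of 0.49. Zc3h12a, an RNase that degrades cytokine transcripts, changed by 1.77 ± 0.44 and Trafd1 by 1.43 ± 0.18 (limma, adjusted p = 0.0182 and 0.00251). Without vehicle replicate 1 only 1 negative regulator rose, and likewise 1 without vehicle replicate 2, beside the same 1940 and 1623 over all tested genes. Of the 3 tested IL-1 family receptors with a TIR domain, 0 rose and 0 fell by limma and 0 had an unadjusted p under 0.05, with a median of 0.39, and 1 rose with the block.

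Marker genes of other cells and of maturation were read beside these results. Of 12 monocyte and granulocyte maturation genes 8 rose, beside 24.2% of all tested genes, and 11 with the replicate block, beside 30.3%. Their summed level went from 1367 to 2095 FPKM in the vehicle samples to 2786 to 4863 FPKM in the DS-5272 samples. Among the 8 was Ly6g, at 0.160 to 0.264 FPKM and then 0.580 to 3.66 FPKM. Ly6g passed the filter on low genes through the DS-5272 samples, which fixed its direction. Ly6c2, the most abundant of them, had a log2 fold change of −0.39 (limma, adjusted p = 0.186). Of 12 macrophage genes 5 rose, and 7 with the replicate block, beside the same shares of all tested genes. The sum of the macrophage genes went from 79.4 to 136 FPKM to 219 to 501 FPKM, highest in DS-5272 replicate 1. Vcam1, the most abundant, changed by 0.74 (limma, adjusted p = 0.125), while C1qa, chosen after its values were seen, measured 1.33, 0.719 and 2.15 FPKM in the vehicle samples and 38.4, 6.92 and 6.64 FPKM in the DS-5272 samples and rose (limma, adjusted p = 0.0187). Tlr7, Tlr9, Tlr4 and Tlr1/Tlr6 were highest in DS-5272 replicate 1 too. Within the vehicle group these receptors were also highest in replicate 1, which held the lowest macrophage sum, 79.4 FPKM. Tlr2, Tlr13, Cd14, Ly96 and Myd88 were highest in DS-5272 replicate 3. The part of maturation and of macrophage transcripts in the rises was not tested. In the DS-5272 samples Adgre1, a macrophage marker listed as Emr1, was at 59.8, 79.1 and 116 FPKM. Siglec1 was at 29.5, 16.5 and 23.2 FPKM. The vehicle samples held at most 23.3 FPKM of Adgre1 and 2.43 FPKM of Siglec1. Other genes of this list differed. In DS-5272 replicates 2 and 3, Slc40a1 was at 13.3 and 17.5 FPKM, within the vehicle range of 12.7 to 18.3 FPKM. Cd163 was at 0.86 and 1.49 FPKM there, within the vehicle range of 0.755 to 3.09 FPKM.

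Plasmacytoid dendritic cells and B cells are rich in Tlr7 and Tlr9. The plasmacytoid list summed to 34.6 to 51.4 FPKM in the vehicle samples and 51.5 to 60.2 FPKM in the DS-5272 samples, most of it from Tcf4, which changed by 0.17 (limma, adjusted p = 0.561). The other 2 tested genes of this list rose, Bcl11a by 1.12 from 0.414 to 0.661 FPKM in the vehicle samples to 2.18 to 2.37 FPKM, and Runx2 by 1.07 from 6.69 to 8.75 FPKM to 12.5 to 24.9 FPKM (limma, adjusted p = 0.00240 and 0.0125). Of its 8 genes, 5 were under 1 FPKM in every sample, and the defining marker Siglech was at 0 in 5 samples and at 0.0129 FPKM in DS-5272 replicate 1. The B cell list summed to 4.58 to 5.45 FPKM and 3.85 to 5.79 FPKM, with 6 of 8 genes under 1 FPKM in every sample, and its most abundant gene Cd79b changed by −0.27 (limma, adjusted p = 0.121). Cd79b measured 3.155 to 4.79 FPKM over the 6 samples, and the part of either cell type in the rises of Tlr7 and Tlr9 was not tested. Classical dendritic cell genes summed to 29.6 to 55.1 FPKM and then 6.54 to 11.2 FPKM. In the vehicle samples most of it was Flt3, a receptor also found on leukemic progenitors, which fell by 3.81 on the log2 scale (limma, adjusted p = 0.000687). Itgax, the other tested gene of this list, rose by 2.13, from 0.449 to 0.744 FPKM to 3.02 to 8.74 FPKM (limma, adjusted p = 0.00448).

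T cell genes summed to 2.65 to 2.90 FPKM in the vehicle samples and 3.65 to 6.33 FPKM in the DS-5272 samples, with Lat the most abundant, at a log2 fold change of 0.22 (limma, adjusted p = 0.146). NK cell genes summed to 0.435 to 0.957 FPKM and then 1.804 to 3.30 FPKM, led by Gzma. Erythroid genes summed to 1.94 to 3.85 FPKM and then 8.29 to 91.0 FPKM, in the DS-5272 samples mostly Hba-a1. Hba-a1 measured 2.39, 1.05 and 0.598 FPKM in the vehicle samples and 84.2, 14.7 and 7.07 FPKM in the DS-5272 samples. Its log2 fold change was 3.31 ± 0.82 (limma, adjusted p = 0.0175), a call lost in 2 of 16 alternatives. Of 8 genes of the MLL-AF9 leukemia program, 6 had a line of their own and 2 in a joined entry were left out. The 6 summed to 595 to 613 FPKM and then 673 to 832 FPKM. Of these, 2 rose and 1 fell, beside 24.2% and 22.0% of all tested genes. The most abundant was Spi1, listed as Sfpi1, which encodes PU.1 and rose by 0.75 ± 0.16 (limma, adjusted p = 0.0107). It went from 227 to 272 FPKM to 369 to 518 FPKM. Myb went from 200 to 226 FPKM to 156 to 198 FPKM and Cebpa from 29.2 to 34.0 FPKM to 19.6 to 28.7 FPKM. Neither passed the threshold without the block, but neither overlapped between the groups. With the replicate block Myb passed as a fall (limma, adjusted p = 0.0369) and Cebpa did not pass. Kit, a receptor of progenitors, fell by 1.96 on the log2 scale, from 30.5 to 45.0 FPKM to 4.94 to 12.1 FPKM (limma, adjusted p = 0.00462). Mef2c rose by 1.31 (limma, adjusted p = 0.00312) but was at 0.0984 to 0.295 FPKM in the vehicle samples. Mef2c, Itgax and Bcl11a were under 1 FPKM in all vehicle samples and passed the filter through the DS-5272 samples, which fixed their direction.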

How the data were processed

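RNA was sequenced from leukemia cells of 6 mice, 3 vehicle and 3 DS-5272, grouped by the treatment in the labels. The authors trimmed reads with cutadapt 1.8.1, checked them with FastQC, aligned them to GRCm38 with TopHat2 2.1.1 and computed the deposited FPKM values with Cufflinks 2.2.1, which divide out transcript length and mapped fragments. Lines that share a name were summed. R 4.3.3 with limma 3.58.1 (lmFit, eBayes with trend, two-sided) was run on log2(FPKM + 1) for entries averaging 1 FPKM or more over the samples, with Benjamini-Hochberg adjustment and a threshold of 0.05. Python 3.11.15 was used for the other steps. These values are not counts, so no count model was used and depth is an estimate.

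Deviations of same-numbered samples correlated by 0.209 to 0.658 and those of other pairs by −0.576 to 0.335. Every same-numbered value passed the limit of 0.1, which was the ground for running the block. Vehicle replicate 2 with DS-5272 replicate 3 (0.335) and vehicle replicate 3 with DS-5272 replicate 2 (0.185) passed it too. The correlations therefore set replicate 1 apart but do not settle how replicates 2 and 3 pair. The main fit has no block. The members and lists were chosen with earlier results of these data known. Genes were named by a rule, namely all members, up to 2 rises and 2 falls per pathway list, the most abundant gene of each marker list and the 3 genes nearest in profile to the member with the largest rise, and no member fell. A gene that the rule selects is not reported here. C1qa, Adgre1, Siglec1, Siglech, Bcl11a, Runx2, Itgax, Kit, Mef2c, Cd180, Tlr3, Tlr11, Tlr12 and Tirap were named after their values were seen. So were Ly6g, Slc40a1, Cd163, Myb and Cebpa. The surface side was planned with 4 genes and has 3 entries, since Tlr1 and Tlr6 are joined. Of the marker genes, 3 had no entry. The limma fit was checked on simulated data. As alternatives the pseudocount was set to 0.1, the filter was dropped or raised to a mean of 5 FPKM, and the others were 4 scalings, the replicate block, no variance trend, the highest line per name, leaving out each sample, and a log2 fold change of at least 1.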

Additional observations from a re-analysis of the deposited data

How the results depend on the processing

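The 8 rises among the 9 entries varied between 6 and 9 over the alternatives, the fit with the replicate block giving 9, and 0 entries fell under any of them. Each entry kept its direction under every alternative, and Tlr2, Tlr13, Tlr7, Ly96 and Myd88 also kept their calls, except that Myd88 has a log2 fold change under 1 and does not pass where at least 1 is required. A log2 fold change of at least 1 left 978 rises and 621 falls over all genes and 20 rises and 0 falls in the pathway lists, by its construction. Scaling to a common total gave 1713 rises over all genes. Leaving out 1 sample gave 1623 to 2934 rises and 1389 to 2432 falls over all genes, with the lowest counts without vehicle replicate 2, and 1492 falls without vehicle replicate 3. In the pathway lists it gave 21 to 34 rises and 0 to 1 falls. The 2 falls in the pathway lists became 1 without a filter, with median ratio scaling and with the replicate block, 0 without the variance trend, and 3 after scaling to a common upper quartile or total or quantile normalization, the cause of which was not tested. With the replicate block, 3367 genes rose and 2771 fell. Where a sample is left out, the remaining 2 are assumed to vary like the other group. Depth limits Ly96 and Tlr9 most, which rest on the fewest fragments, and genes under 1 FPKM were not tested.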
